A study of Mus musculus with 3 samples.

Results

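The miR-30 family is described here through its 6 mouse hairpins, Mir30a, Mir30b, Mir30c-1, Mir30c-2, Mir30d and Mir30e, out of 2202 annotated microRNA hairpins, of which 959 had at least 1 read. The members were chosen by gene symbol. A read was counted for a hairpin when its first 20 bases matched the hairpin in sense after trimming of the 3′ linker. The RNA came from fully grown oocytes of mice given 5 IU of PMSG, a gonadotropin that makes ovarian follicles grow, 48 hours before they were killed. All 3 libraries carry this same treatment, and the labels used here give no strain, age, number of animals or number of oocytes. The RNA was cut from gels either into a 19-24 nt and a 24-30 nt fraction or into a 19-30 nt fraction, with 1 library for each, called the short, the long and the wide library below. Without replicates, the spread between preparations is unknown for every comparison of libraries. Every interval below is a 95% interval that covers counting error only, and reads of amplified libraries are not independent molecules.

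A microRNA hairpin is cut by the enzymes Drosha and Dicer into a duplex, and usually the strand of either its 5′ arm (5p) or its 3′ arm (3p) is kept in an Argonaute protein. Bases 2 to 8 of the kept strand, the seed, choose the messenger RNAs that it silences, so that members with the same seed share most of their predicted targets. The miR-30 family is found in many vertebrate tissues and is made from 3 pairs of neighbouring hairpins. Mature microRNAs can also be extended at their 3′ end by enzymes that add uridines or adenosines.

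The mature sequences show what the members share and where they part. RefSeq (GRCm38.p6) held mature entries for 4 of the 6 members, printed 5′ to 3′ with the seed in capitals, first those of the 5p arm:
mmu-miR-30a-5p: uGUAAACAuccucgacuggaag
mmu-miR-30e-5p: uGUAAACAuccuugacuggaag
mmu-miR-30c-5p: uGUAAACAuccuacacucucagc
and then those of the 3p arm, whose seeds differ between the members:
mmu-miR-30a-3p: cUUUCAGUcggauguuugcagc
mmu-miR-30e-3p: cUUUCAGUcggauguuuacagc
mmu-miR-30c-1-3p: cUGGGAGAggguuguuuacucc
mmu-miR-30c-2-3p: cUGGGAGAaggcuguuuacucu

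The 5p entries have 1 seed, GUAAACA, in common, and the 3p entries fall into 2 seeds, UUUCAGU for miR-30a and miR-30e and UGGGAGA for both miR-30c hairpins. Counted from 1 at the 5′ end, miR-30a-5p and miR-30e-5p differ by the single substitution C13U, and their 3p strands by G18A. Over the first 20 bases of the 5p reads, Mir30a, Mir30d and Mir30e differ among themselves by 1 to 2 bases, Mir30b and Mir30c by 2, and a member of the first group from a member of the second by 5 to 6. Mir30c-1 and Mir30c-2 give the same 5p sequence, so that their 5p reads cannot be told apart and were divided equally. They are given together as Mir30c. The closeness of Mir30a, Mir30d and Mir30e raised the question whether base errors moved reads between them. They differ at bases 12 and 13, which allow 13 further combinations that belong to none of the 3. Such combinations made up 14 of 7658 reads in the short library (0.183%, interval 0.109 to 0.307%), 6 of 1061 in the long library and 1 of 1250 in the wide library. These shares are far below that of any of the 3 members.

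The hairpins lie as neighbours on 3 chromosomes (GENCODE M21, GRCm38). Mir30a (chr1:23272269-23272339, plus strand) overlaps no other annotated gene, and Mir30c-2 (chr1:23291701-23291784), 19361 bases on, lies in an exon of the long non-coding RNA Gm27028. Mir30c-1 (chr4:120769534-120769622, minus strand) and Mir30e (chr4:120772606-120772697), 2983 bases apart, lie in introns of Nfyc, a subunit of the CCAAT-binding factor NF-Y. Mir30b (chr15:68337415-68337510, minus strand) overlaps an exon of the non-coding transcript Gm26621, and Mir30d (chr15:68341208-68341289), 3697 bases away, exons of Gm37296 and Gm20732. Of the 11754 reads of the members in the 3 libraries, 3790 also match an exon of Gm20732 or Gm27028, since these transcripts hold the hairpins. Neighbours did not have like levels. Mir30e had 3558, 531 and 886 reads in the short, long and wide libraries, against 749, 30 and 199 for both Mir30c hairpins together. Mir30d had 2383, 277 and 167 reads, against 411, 1 and 72 for Mir30b.

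The depth of the libraries was uneven. Usable inserts numbered 680349, 1423103 and 745069 in the short, long and wide libraries, and reads on any microRNA hairpin 245342, 25295 and 36694. Levels are given as reads per 1000000 usable inserts (RPM). A count of 0 allows a level of up to 4.41, 2.11 and 4.03 RPM (3 reads). Lists of microRNAs typical of certain cell types, germline and early embryo among them, moved between the libraries as well. The granulosa and stroma list (8 of 8 hairpins with reads in every library) took 18.6% of microRNA reads in the short library, 2.30% in the long library and 1.77% in the wide library. The early embryo list took 0.235%, 0.0553% (Mir293 and Mir295 at 0) and 5.51%, and the germline X-linked list 0.128%, 0.0277% (7 of its 12 hairpins at 0, Mir465, Mir471, Mir743b, Mir880, Mir881, Mir883a and Mir883b) and 2.23%. The blood list took 1.37% in the short library, and 0.518% and 0.0463% in the long and wide libraries, where Mir144 and Mir142 were at 0. The part of these shares in the values below was not tested. The 26 nt reads of the first 2 libraries and the 36 nt reads of the third are a further difference that cannot be told apart from the window.

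The family was among the well represented microRNAs of the oocyte preparations. The 6 hairpins together had 9032 reads in the short library, which is 13275.5 RPM (interval 13003 to 13552). They had 1106 reads in the long library, which is 777 RPM (732 to 824), and 1616 in the wide library, which is 2169 RPM (2064 to 2277). As a share of all microRNA reads this was 3.68% (3.61 to 3.76%), 4.37% (4.13 to 4.63%) and 4.40% (4.20 to 4.62%). The family's share thus stayed within a narrow range while its level per insert fell strongly from the short to the long library. How a read shared by many hairpins was counted, however, turned the comparison of shares. With the full read given to each hairpin, the family took 2.74%, 1.69% and 1.43% of the hairpin counts.

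Mir30e was the most frequent member in all 3 libraries. In the short library it had 5230 RPM (interval 5059 to 5404) and stood 22nd among all hairpins by reads, followed by Mir30d at 3503 RPM (3363 to 3646), Mir30a at 2838 RPM (2713 to 2968), Mir30c at 1101 RPM (1023 to 1183) and Mir30b at 604 RPM (547 to 665). No 2 of these intervals overlapped. In the long library Mir30e had 373 RPM (342 to 406) and stood 8th. Mir30d at 195 RPM (172 to 219) and Mir30a at 188 RPM (166 to 212) followed, and their intervals overlapped. Mir30c had 21.1 RPM (14.2 to 30.1) there and Mir30b a single read, 0.703 RPM (0.0178 to 3.92). In the wide library Mir30e had 1189 RPM (1112 to 1270) and stood 11th. The order behind it was Mir30a at 392 RPM (348 to 440), Mir30c at 267 RPM (231 to 307), Mir30d at 224 RPM (191 to 261) and Mir30b at 96.6 RPM (75.6 to 122), where the intervals of Mir30c and Mir30d overlapped. All levels are reads that begin in the hairpin, so hairpin length does not enter them.

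**Figure D1:**
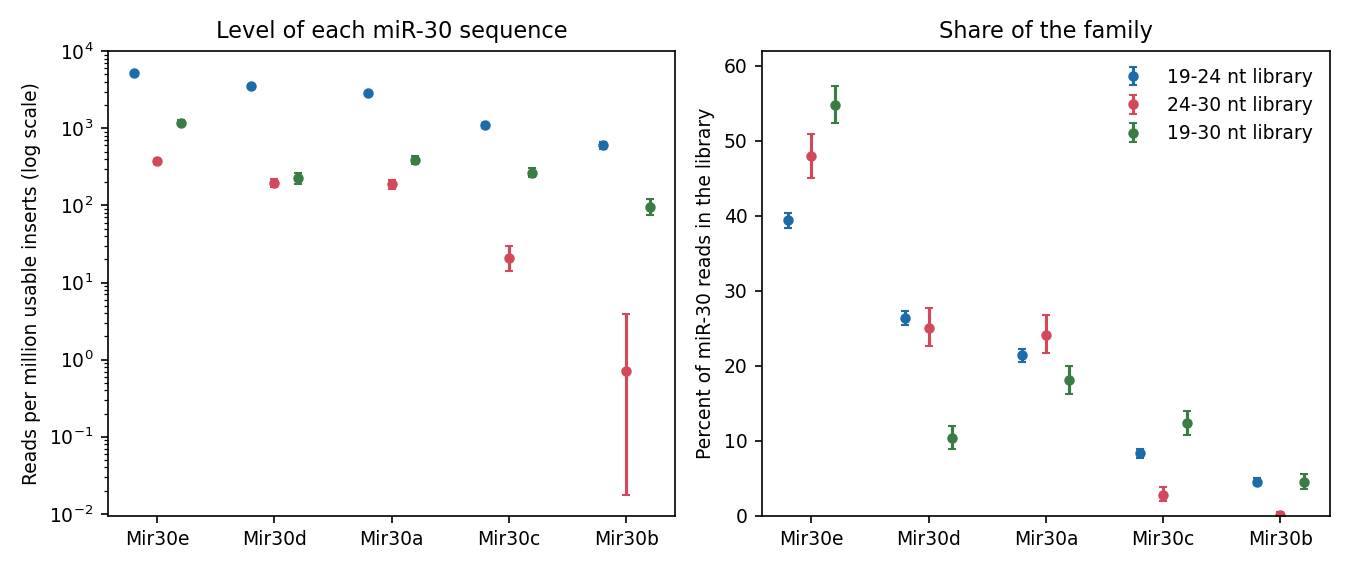
Left, RPM (log axis) of each miR-30 sequence in the short (19-24 nt), long (24-30 nt) and wide (19-30 nt) libraries, with exact Poisson 95% intervals. Right, the same reads as a percent of all miR-30 reads of the library, with Wilson 95% intervals. Mir30e is highest in each library, Mir30c has 2.71% of the family and Mir30b 1 read in the long library, and Mir30d falls from 26.4% to 10.3% of the family between the short and the wide library.

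Mir30b and Mir30c had few reads in the long library relative to Mir30a, Mir30d and Mir30e. Per 100 reads of Mir30a, Mir30d and Mir30e together, Mir30b and Mir30c had 14.7 reads (interval 13.9 to 15.7) in the short library and 20.1 (17.7 to 22.96) in the wide library, but 2.88 (2.02 to 4.11) in the long library. Mir30b alone went from 411 and 72 reads in the short and wide libraries to 1 read in the long library. Mir30c went from 749 and 199 to 30. This comparison within the family does not depend on the total to which the libraries are scaled. For Mir30b it rests on 1 read, and when only the first 18 bases had to match, its share of the family in the long library was 0.865% in place of 0.0904%.

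The balance among Mir30a, Mir30d and Mir30e also differed between libraries, most of all for Mir30d. Mir30d had 67.0 reads per 100 reads of Mir30e (interval 63.6 to 70.5) in the short library, 52.2 (45.1 to 60.3) in the long library and 18.8 (16.0 to 22.2) in the wide library. Against Mir30a, from which its reads differ by 1 base, it had 123 (116 to 131), 104 (87.7 to 123) and 57.2 (47.3 to 69.2) reads per 100. Mir30a itself had 54.3 (51.3 to 57.4), 50.3 (43.4 to 58.2) and 33.0 (28.9 to 37.6) reads per 100 of Mir30e. Mir30e therefore made up 39.4% of the family (38.4 to 40.4%) in the short library, 48.0% (45.1 to 51.0%) in the long library and 54.8% (52.4 to 57.2%) in the wide library. These differences exceed counting error, and no replicate was there to set them against. The shares of the marker lists given above also differed between the libraries, and their part in this balance was not tested.

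The family's ratios between libraries were below the median of the well covered hairpins. The family's share of microRNA reads in the short library was 0.836 times (interval 0.793 to 0.882) that in the wide library, while the median over the 195 hairpins with at least 100 reads was 1.73. Of these hairpins 45.6% were at least 2-fold higher in the short library and 21.5% at least 2-fold lower. Mir30d, at 2.13 (1.82 to 2.51), was the only member past 2-fold, but it stayed under 2-fold when 18 bases had to match (1.68), with 1 mismatch allowed (1.68), with reads of a single hairpin (1.82) or scaled to hairpins with Mir symbols (1.97). With a lowest quality of 10 it was 3.46, and Mir30a 1.61. With the full read given to each hairpin the ratios were 5.06 for Mir30d, 2.34 for Mir30a and 2.02 for Mir30b. Mir30a was at 0.989 (0.874 to 1.12), Mir30b at 0.854, Mir30e at 0.601, and the Mir30c hairpins at 0.543 and 0.577. Against the long library the family ratio was 0.842 (0.791 to 0.897) and the median of all hairpins 3.10. There 58.5% of hairpins were at least 2-fold higher in the short library and 19.5% at least 2-fold lower. Mir30e at 0.691 (0.630 to 0.758), Mir30a at 0.746 (0.656 to 0.851) and Mir30d at 0.887 (0.783 to 1.01) stayed within 2-fold. Mir30c-1 at 2.38 (1.45 to 4.22), Mir30c-2 at 2.78 (1.64 to 5.14) and Mir30b, on 1 read, at 42.4 (7.56 to 1678) were past it. The medians depend on the hairpins taken in. Over hairpins with at least 10 reads they were 0.590 for the wide and 0.986 for the long library, and with no minimum 0.598 and 1.03. Against these wider sets the family ratio was above the median for the wide library and somewhat below it for the long library. Many hairpins in the wider sets are Gm entries that divide the same reads and so have the same ratio, such as 0.0598 to the wide library. Shared reads therefore enter these medians once for each such entry.

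The same comparison per usable insert gives another direction, because microRNAs made up 36.1% of usable inserts in the short library, 1.78% in the long library and 4.92% in the wide library. On that scale the family was 17.1 times higher (interval 16.0 to 18.2) in the short than in the long library, against a median of 62.9 over the 195 hairpins, and 6.12 times higher (5.80 to 6.46) than in the wide library, against a median of 12.7. The change of scale multiplies the ratio of every hairpin alike, so that 24.1% of hairpins stood below the family for the long library and 28.7% for the wide library on either scale. Among the 189 hairpins outside the family with at least 100 reads, those with the most similar pair of log2 share ratios over the 3 libraries were Mir17 (distance 0.28), Mir342 (0.29), Mir324 (0.92), Mir185 (0.95) and Mir130b (1.03).

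A search of the 1738 mature entries for the 5p seed found 1 hairpin outside the list, Mir384, whose 5p strand carries it. Mir384 had 0 reads in all 3 libraries. Mir30f, which lies antisense to Mir30e on chromosome 4 and whose annotated product has another seed, also had 0 reads. At this depth neither was detectable, within the limits given above.

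Nearly all reads of the family came from the 5p arm. The 5p share was 98.4% (interval 98.1 to 98.6%) in the short library, 99.3% (98.6 to 99.6%) in the long library and 96.3% (95.3 to 97.1%) in the wide library. At least 95% of reads came from 1 arm in all 6 members with the libraries summed, from 96.3% for Mir30a to 99.6% for Mir30b, and in 70.3% of the 195 hairpins, so that the family was not unusual in this. The highest 3p shares were those of Mir30a and Mir30c. Mir30a had 59 of 1931 reads from its 3p arm (3.06%, interval 2.38 to 3.92%) in the short library, 5 of 267 (1.87%, 0.802 to 4.31%) in the long library and 29 of 292 (9.93%, 7.004 to 13.9%) in the wide library. Mir30c had 18 of 749 (2.40%), 1 of 30 and 14 of 199 (7.04%, 4.24 to 11.5%). Both thus had a higher 3p share in the wide than in the short library. Mir30e had 53 of 3558 (1.49%), 2 of 531 and 16 of 886 (1.81%, 1.11 to 2.91%), without such a difference, and Mir30d 16 of 2383, 0 of 277 (interval up to 1.37%) and 1 of 167. Mir30b had 2 3p reads of 411 in the short library and 0 in the others, of 72 in the wide library (up to 5.07%).

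The 5′ end, which sets the seed, was sharp on the 5p arm. Over all members 98.9% of 5p reads (interval 98.6 to 99.1%) began at the main start in the short library, 98.8% (98.0 to 99.3%) in the long library and 96.7% (95.7 to 97.5%) in the wide library. For Mir30a, Mir30c and Mir30e the main start was the first base of the RefSeq mature strand, the u before the seed capitals above. All 6 members had at least 90% of their main-arm reads at 1 start with the libraries summed, as had 82.3% of the 186 hairpins with at least 100 reads on the main arm. Mir30e and Mir30a had the most reads that began 1 base later. For Mir30e these were 66 of 3505 (1.88%, interval 1.48 to 2.39%), 12 of 529 (2.27%, 1.30 to 3.92%) and 32 of 870 (3.68%, 2.62 to 5.15%) in the short, long and wide libraries. Mir30a had 17 of 1872 (0.908%), 0 of 262 and 11 of 263 (4.18%, 2.35 to 7.33%), so that in the wide library its share was the higher, with overlapping intervals. Mir30d had 6 of 2367, and 0 in the other libraries, and all 482 reads of Mir30b began at the main start. Such reads carry a seed that is shifted by 1 base.

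The 3p arm of Mir30a began away from its annotated place. Of its 3p reads 46 of 59 (78.0%, interval 65.9 to 86.6%) in the short library, 5 of 5 in the long library and 21 of 29 (72.4%, 54.3 to 85.3%) in the wide library began 1 base after the annotated first base, that is, at the first of the seed capitals of mmu-miR-30a-3p above. The 3p reads of Mir30e, whose annotated strand differs by G18A alone, began at the annotated base in 48 of 53 (90.6%, 79.7 to 95.9%), 2 of 2 and 14 of 16 reads. The main start thus differed between 2 strands that match over their first 17 bases. The 3p arm of Mir30c-2 began at the annotated base in 11 of 13 and 4 of 5 reads of the short and wide libraries, and that of Mir30c-1 in 4 of 5 and 4 of 9.

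The members differed in length. Only the 36 nt reads of the wide library show the whole insert, and 1087 5p reads of the family could be sized there. The 469 other 5p reads, in which no linker was found, are not in these lengths. Mir30e, Mir30d and Mir30a had 23 nt as their most frequent length, with 49.7% of 604 reads (interval 45.7 to 53.6%), 50.5% of 109 (41.2 to 59.7%) and 47.3% of 184 (40.2 to 54.5%). A length of 24 nt followed with 31.1%, 26.6% and 29.9%, and the annotated 22 nt of miR-30a-5p and miR-30e-5p was held by 14.1% and 10.3%. Mir30b was shorter, with 81.1% of 53 reads (68.6 to 89.4%) at 22 nt. Mir30c was longer, with 71.5% of 137 reads (63.5 to 78.4%) at 24 nt, 1 base above its annotated 23 nt, and 19.0% (13.3 to 26.4%) at 25 nt or more, against 6.95% (5.19 to 9.27%) for Mir30e.

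**Figure D2:**
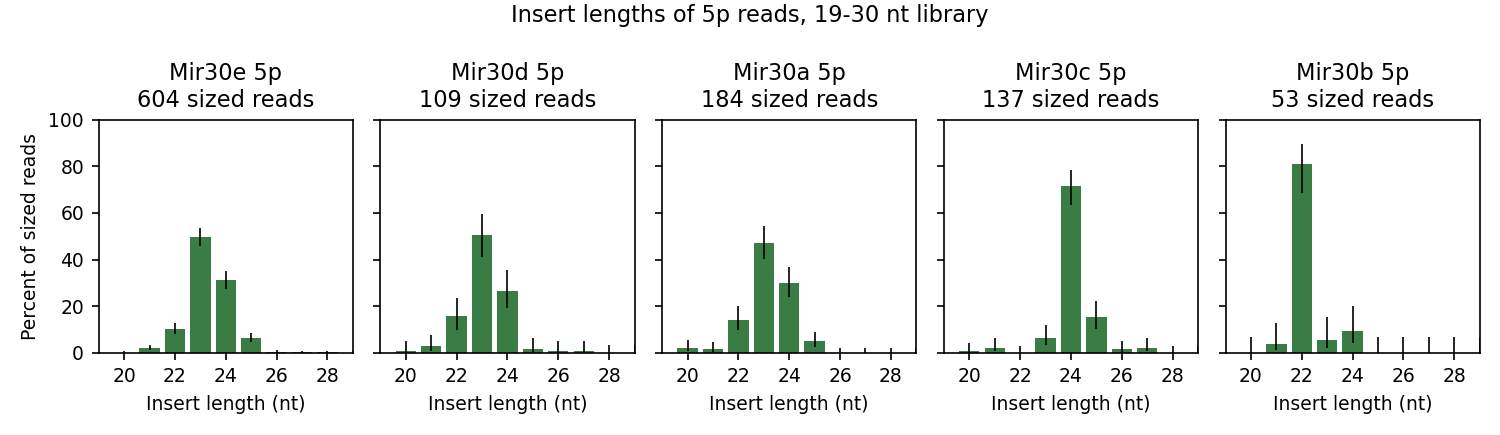
Insert length (nt) of the sized 5p reads of each miR-30 sequence in the wide (19-30 nt) library, as a percent of its sized reads, with Wilson 95% intervals. Mir30e, Mir30d and Mir30a peak at 23 nt, Mir30c at 24 nt and Mir30b at 22 nt.

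Most other microRNAs were shorter. A most frequent length of 23 nt or more was found for 38.2% of the 76 hairpins with at least 50 sized main-arm reads, and for 5 of the 6 members. The median of the mean lengths over these hairpins was 22.2 nt. The means of the family were 24.1 ± 0.89 nt for Mir30c, 23.3 ± 0.86 nt for Mir30e, 23.2 ± 0.94 nt for Mir30a, 23.1 ± 0.95 nt for Mir30d and 22.2 ± 0.66 nt for Mir30b (SD over reads). No hairpin had a longer mean than the 2 Mir30c hairpins. The 46 sized 3p reads were shorter, at 21.3 ± 1.07 nt.

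The 26 nt reads of the short library allow a second look at the 3′ end where the linker can be read after it. At the main start, 1533 of 3432 Mir30e reads (44.7%), 818 of 2360 Mir30d reads (34.7%), 704 of 1852 Mir30a reads (38.0%) and 369 of 731 Mir30c reads (50.5%) followed the hairpin to base 24 and then read into the linker. An end after base 23 was read in 10.5%, 10.8%, 12.9% and 0.958%. For Mir30b 280 of 409 reads (68.5%) ended after base 22, and none after 23 or 24. Mir30b was thus the shortest in both libraries, but the most frequent end of Mir30e, Mir30d and Mir30a was 24 here, as for Mir30c, and 23 in the wide library. Between 31.3% (Mir30b) and 47.5% (Mir30d) of the reads matched no length exactly. In Mir30a, Mir30c, Mir30d and Mir30e the hairpin goes on after base 22 with the same 4 or 5 bases with which the linker begins, so that an end at 22 could not be told from a read that follows the hairpin to base 26.

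In the long library most 5p reads of Mir30a, Mir30d and Mir30e ended in adenosines and uridines that the hairpin does not hold. A read was counted as tailed when at least 2 bases, all A or U, followed the last base that continued the hairpin. In the short and long libraries these bases had to run to the end of the read. Tails were found on 420 of 509 Mir30e reads (82.5%, interval 78.97 to 85.6%), 212 of 262 Mir30d reads (80.9%, 75.7 to 85.2%) and 199 of 256 Mir30a reads (77.7%, 72.2 to 82.4%). Mir30c had them on 16 of 28 reads (57.1%, 39.1 to 73.5%). The single Mir30b read had none.

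Few tails were counted on the same sequences in the other libraries. For the short library the rule cannot show how many there were, because a tail followed by linker was not counted. It left 36.1% of the family's 5p reads unclassified there, against 14.1% in the long and 2.30% in the wide library. In the short library 107 of 3252 Mir30e reads (3.29%), 33 of 2187 Mir30d reads (1.51%), 48 of 1752 Mir30a reads (2.74%), 23 of 679 Mir30c reads (3.39%) and 3 of 390 Mir30b reads were tailed. In the wide library the counts were 15 of 604 (2.48%), 3 of 109, 3 of 184, 8 of 137 (5.84%) and 3 of 53. The shares of the short library therefore cannot be set against those of the long library. All these shares describe counted tails in each size-selected library and not the share of tailed molecules in the oocyte.

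**Figure D3:**
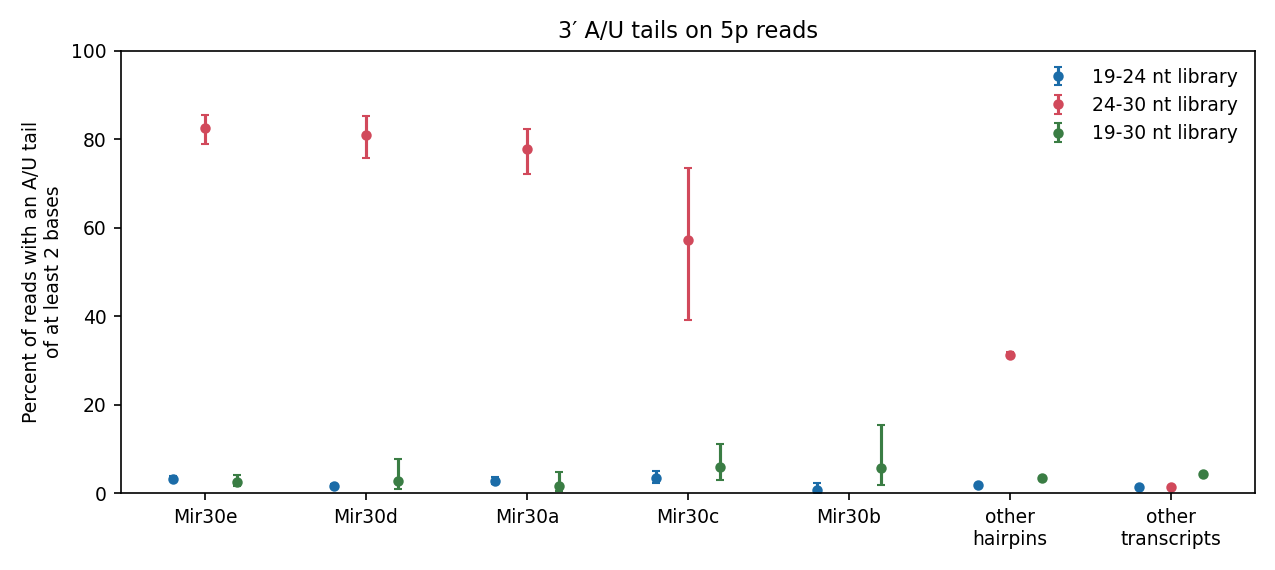
Percent of 5p reads that carry an untemplated tail of at least 2 A or U bases, for each miR-30 sequence, for reads of the other microRNA hairpins and for reads of other transcripts, in the 3 libraries, with Wilson 95% intervals (items with fewer than 10 reads are left out). Only the long (24-30 nt) library shows high shares, from 57.1% to 82.5% for Mir30c, Mir30a, Mir30d and Mir30e. The other hairpins, Gm symbols included, had 31.3% there and other transcripts 1.45%. In the short library a tail followed by linker was not counted, so its shares cannot be compared with those of the long library.

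The tails were not a property of every read of the long library. Reads of other annotated transcripts had a tail by the same rule in 1746 of 120217 reads (1.45%), and reads of the other hairpins in 7246 of 23151 (31.3%, interval 30.7 to 31.9%). Of the 48 hairpins, or sets of hairpins that share their reads, with at least 100 reads there, 29.2% had tails on at least 50% of their reads, and all 3 members with at least 100 reads were among them. The median of the 48 was 15.3%. Entries with Gm symbols among the 48 all had tails on at most 4% of reads and lower this median. In this library 17.5% of the reads on hairpins fell on symbols that do not begin with Mir, and these also enter the 31.3%. Mir351 stood 1st with 91.4% of 3611 reads. Mir30e, Mir30d and Mir30a stood 2nd, 3rd and 4th, here with both arms counted (82.2%, 80.9% and 76.6%), and Mir138-1 and Mir138-2, which share their reads, 5th with 73.1%. The members' intervals overlapped each other, and that of Mir30a overlapped that of Mir138.

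**Figure D4:**
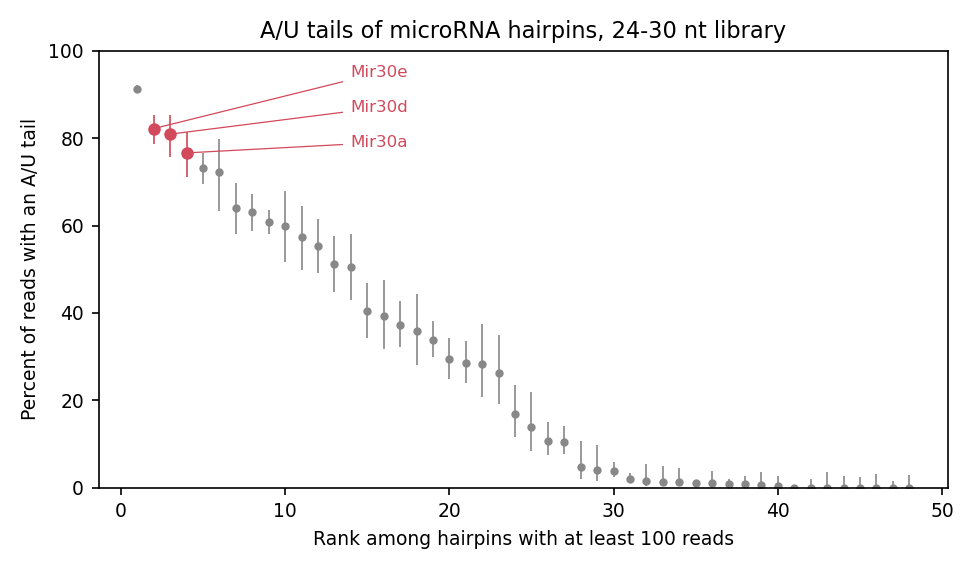
Percent of reads with an untemplated A/U tail in the long (24-30 nt) library for the 48 hairpins or hairpin sets with at least 100 reads, in order of that percent, with Wilson 95% intervals. Mir30e, Mir30d and Mir30a (marked) stand 2nd, 3rd and 4th, and the median is 15.3%. Entries with Gm symbols, all at 4% or less, are among the 48.

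Most of the counted tails began at the same place. In 807 of the 831 tailed reads of Mir30a, Mir30d and Mir30e (97.1%) the last base that continued the hairpin was base 24. Base 24 is also the latest end that the rule allows in a 26 nt read, so tails that began later were not counted. The same end was the most frequent in tailed reads of the other hairpins (55.9%) and of other transcripts (55.0%) in the long library. In Mir30a, Mir30c and Mir30e base 24 of the hairpin is itself a U, after a C at base 23, so that a tail added after base 23 that begins with U would look the same. Base 25 of these hairpins is a G. Among 886 reads of Mir30a, Mir30d and Mir30e that continued the hairpin over bases 22 to 24, bases 25 and 26 were UU in 473 (53.4%), UA in 131 (14.8%), AU in 108 (12.2%) and AA in 70 (7.90%). They were GU, as in the hairpins of Mir30a and Mir30e, in 16 (1.81%). In the short library the same positions read CU, the start of the linker, in 3055 of 4475 reads (68.3%), and UU in 123 (2.75%). The visible part of the tails was 74.7% U in the long library, against 64.9% for the tails of the other hairpins and 56.5% for the few tails of other transcripts. A 26 nt read ends at base 26, so that the full length of the tails was not seen.

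Base calls at these positions were of high quality in the tailed reads. The median quality of bases 25 and 26 was 40 in the tailed reads of Mir30a, Mir30d and Mir30e, 20.5 in their other reads and 32 in reads of other transcripts. Among the 886 reads of these members that continued the hairpin over bases 22 to 24, both bases were A or U in 782 (88.3%). Where both bases had a quality of at least 20, the A/U share was 485 of 514 of these reads (94.4%, interval 92.0 to 96.0%). That in other transcripts was 363 of 43180 (0.841%). A base earlier in the reads often differed from the hairpin, and why was not tested. At cycle 21 the base differed from the hairpin in 55.5% of 5p reads of the family in the long library and in 50.6% in the short library, against 1.30% and 4.75% at cycle 22. A differing base at positions 21 to 23 was therefore stepped over. Without that step 34.8% of the family's 5p reads in the long library were called tailed, in place of 80.2%.

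The wide library showed another kind of extension. Of the 1087 sized 5p reads, 111 (10.2%) ended in a lone untemplated A, 19 (1.75%) in AA and 11 (1.01%) in a lone U. In Mir30c a lone A was found on 19 of 137 reads (13.9%), in Mir30e on 65 of 604 (10.8%), in Mir30a on 20 of 184 (10.9%), in Mir30d on 4 of 109 (3.67%) and in Mir30b on 3 of 53 (5.66%). The tails of at least 2 bases were 17.1% U in this library, against 74.4% for all 5p tails in the long library. Reads of other transcripts in the wide library had a like excess of A, with 9.66% U in their tails and a lone A or U on 12.1% of reads, near the 11.2% of the family. Reads of the other hairpins there had 14.9% U in their tails and a lone A or U on 13.4% of reads. The family's short extensions in this library were therefore near the level of other transcripts and of other hairpins. Mir30c, the longest member in the wide library, and Mir30b, the shortest, had 30 reads and 1 read in the long library. Mir30a, Mir30d and Mir30e, of middle length in the wide library, had more. In the short library their most frequent read end was the same as that of Mir30c. Whether length bears on presence in the long library was not tested.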

How the data were processed

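Small RNA of 3 size windows was sequenced in 1 library each, with adapter ligation and amplification per the labels. The deposited files hold values of another kind than counts, single reads with a quality for each base, made by the authors with no further step recorded per the labels. For an aligner or a genome build, nothing is given in the labels used here. With Python 3.11.15 (numpy, scipy), the linker was derived from bases after known mature microRNAs and trimmed (overlap of at least 4 bases in 26 nt and 6 in 36 nt reads, up to 20% mismatches). Usable inserts had at least 18 nt, no uncalled base in the first 18 and were not of low complexity. Reads of 36 nt with no linker found were kept for counts and left out of lengths. The first 20 bases were matched perfectly to GENCODE M21 hairpins in sense, and a shared read was divided among its hairpins. Intervals are Wilson for shares, exact Poisson for levels and conditional binomial for ratios. No test was made, with 1 library per window. Arms follow RefSeq mature positions or, without these, the hairpin midpoint. The recovery of members and lengths was tested on simulated reads. These did not model the frequent base differences at cycle 21, and the tail rule was not scored on them. Named hairpins are the 6 members, others with their 5p seed and the 5 nearest in log2 share ratios. Mir351 and the Mir138 hairpins were named after their values were seen. Nearest distances used at least 3 reads per library. The members, the lists and the tail rule were chosen with earlier results of these data known. The marker lists were germline X-linked, early embryo, granulosa and stroma, and blood microRNAs.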

Additional observations from a re-analysis of the deposited data

How the results depend on the processing

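Of 265 values recomputed under alternatives, 57 of the 101 for the main results stayed within counting error. The 5p arm shares (95.4 to 99.4%) did so under all alternatives tried. Of the 164 values for single members and hairpin medians, 57 moved and 11 reversed. Mir30e had the highest share of the family in each library under every alternative run. The causes of the moves below were not tested unless stated, and the quality filters on the tails, the exclusion of unsized reads, the restriction to Mir symbols and the other tail rules were chosen after seeing the data.

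Matching 18 bases gave family shares of 3.59% (19-24 nt library) and 4.96% (19-30 nt), levels of 15859.5, 839 and 2789 RPM, and a 19-24 to 19-30 nt ratio of 0.725. Allowing 1 mismatch gave shares of 3.52%, 3.89% and 4.75% and ratios of 0.741 (to 19-30 nt) and 0.906 (to 24-30 nt). Reads on a single hairpin, which leave out Mir30c 5p reads by construction, gave family shares of 4.71%, 6.21% and 6.36%, Mir30e shares of 42.9% (19-24 nt) and 61.9% (19-30 nt), and ratios of 0.740 and 0.758. Giving each hairpin the full read gave family shares of 2.74%, 1.69% and 1.43%, Mir30e shares of 36.4% and 49.2%, and reversed the ratios, to 1.92 (family), 1.37 (Mir30c) and 1.42 (Mir30e) against the 19-30 nt library and 1.62 (family), 1.36 (Mir30a) and 1.26 (Mir30e) against the 24-30 nt library. Scaling to usable inserts reversed the same ratios, to 6.12, 4.12 and 4.40 and to 17.1, 15.1 and 14.02. The median ratio over hairpins against the 19-30 nt library reversed to 0.590 with at least 10 reads and 0.598 with no minimum, and that against the 24-30 nt library to 0.986 with at least 10 reads, and fell to 1.03 with no minimum.

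The stricter linker gave 2001 RPM in the 19-30 nt library. A lowest quality of 10 gave family shares of 3.43% (19-24 nt) and 3.56% (19-30 nt), Mir30e shares of 52.5% (24-30 nt) and 58.9% (19-30 nt), a main start share of 97.6% (19-30 nt) and a ratio of 0.965 (to 19-30 nt). Fully templated inserts had 46.0% of reads at 23 nt. Levels per read in the file were 11813.7 (19-24 nt) and 1712 RPM (19-30 nt), and that with sized 36 nt reads alone 2582 RPM. Scaling to Mir symbols gave shares of 5.30% (24-30 nt) and 4.79% (19-30 nt) and ratios of 0.772 and 0.698. The A/U tail share in the 24-30 nt library was 34.8% with no differing base stepped over, and 94.4% with bases 25 and 26 of quality at least 20. The base at cycle 21 differed from the hairpin in 55.5% of the family's 5p reads there, and why was not tested. No paired analysis was possible because the labels carry no replicate numbers and each window has 1 library. Depth limits Mir30b (1 read) and Mir30c (30 reads) in the 24-30 nt library and the 3p arms.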
